A study of Mus musculus with 6 samples.

Results

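T-bet, a transcription factor of the T-box family, directs T helper 1 differentiation and is also made in a part of the regulatory T cells (Treg cells), which restrain immune responses. Chromatin immunoprecipitation and sequencing (ChIP-seq) finds where such a factor sits on DNA: a peak is a place where sequenced fragments pile up. Some places in a mouse assembly, such as ribosomal and satellite repeats of which the assembly holds fewer copies than the genome, are known to collect fragments in many ChIP-seq experiments, whatever the antibody. A second library and a knockout library are the usual checks on a peak found once.

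The regions described here are strong peaks of 1 wild-type (WT) T-bet ChIP library that neither the second WT library nor the T-bet knockout (KO) library had in its list, and that lay apart from the sites both WT libraries held. They were chosen by measured values: a replicate 1 score of 200 or more, no overlap of 1 bp or more with a replicate 2 or KO peak, and a gap of more than 25 kb to every shared site. A shared site is a replicate 1 peak that meets a replicate 2 peak and no KO peak. The rule found 766 members among the 7996 replicate 1 peaks, and 8925 peaks stood in all 3 lists. The score is the authors' peak-caller value for each peak, on a scale that is not stated. Scores chose and ranked peaks within 1 list, and where scores of 2 lists stand side by side they are not on a known common scale. Score, overlap and gap therefore describe the choice and support nothing.

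The study asked where T-bet binds in murine Treg cells. The 3 ChIP libraries came from induced Treg (iTreg) cells of Balb/c mice aged 4 to 10 weeks: 2 were WT and 1 was T-bet-KO, whose allele is not named in the labels. All were naive CD4+ T cells sorted from spleen and lymph nodes, activated on plates with anti-CD3 and anti-CD28 at 10 µg/ml each, and cultured for 7 days with TGF-β1 at 33 ng/ml and IL-2 at 20 ng/ml. All were precipitated with the same rabbit serum against T-bet, and the 3 input libraries were not analysed here. The labels do not say whether the WT replicates came from separate mice or cultures. These cells were made in culture, and the lists carry no measure of their identity. Replicate 2 and KO share a leading number in the names of their lists, and replicate 1 has another. If that number marks a batch, batch and replicate cannot be told apart. Depth is unknown for every library, and the replicate 2 and KO lists were short, with 851 and 78 peaks. A site missing from them is thus not shown to be free of signal.

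Members were the largest class of strong replicate 1 peaks at the score limit of 200. Of 1402 peaks with a score of 200 or more, 766, or 54.6% (exact 95% binomial interval 52.0 to 57.3%), were members. This order depends on the limit. With 300 or more the members' share was 40.9%, and from 400 to below 600 shared sites outnumbered members by 118 to 56. A replicate 2 peak was met by 493 strong peaks, or 35.2%, beside 9.5% of all replicate 1 peaks. Of these 493, 468 were shared sites and 25 also met a KO peak. A further 136 strong peaks had no counterpart but lay within 25 kb of a shared site, and 7 met a KO peak alone. Intervals here and below cover counting error over peaks, which are not independent replicates. The counts follow from the rule and are not tested.

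The members sat at both ends of the strong scores. They were 70.7% (66.6 to 74.6%) of the 516 peaks with scores from 200 to below 250 and 54.3% of the 289 peaks from 250 to below 300. Their share was 44.3% of 298 peaks from 300 to below 400 and 29.5% (23.1 to 36.5%) of 190 peaks from 400 to below 600. Above that it was larger again, at 43.9% (33.0 to 55.3%) of 82 peaks from 600 to below 1000. This interval overlaps that of the class below. At 1000 or more the share was 74.1% (53.7 to 88.9%) of 27 peaks. Neighbouring peaks each count in these shares. The 8 members of 1 chromosome 6 group scored 699 to 1048, and the 4 of 1 chromosome 2 group scored 1513 or more. The 12 members of another chromosome 6 group, close to the first, scored 252 to 782, among them 675, 678, 710, 716 and 782. Much of the class from 600 to below 1000 thus came from 1 place, and the shares without these groups were not computed. Members and shared sites together made up most of each class, so their shares mirror each other. Shared sites held 16.3%, 62.1% and 22.2% of the lowest, the fourth and the highest class. The 5 highest replicate 1 peaks were all members, as were 9 of the 10 highest, 20 of the 27 highest and 54 of the 100 highest. Members were 54.6% of all strong peaks, and the last of these counts is near that share.

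**Figure D1:**
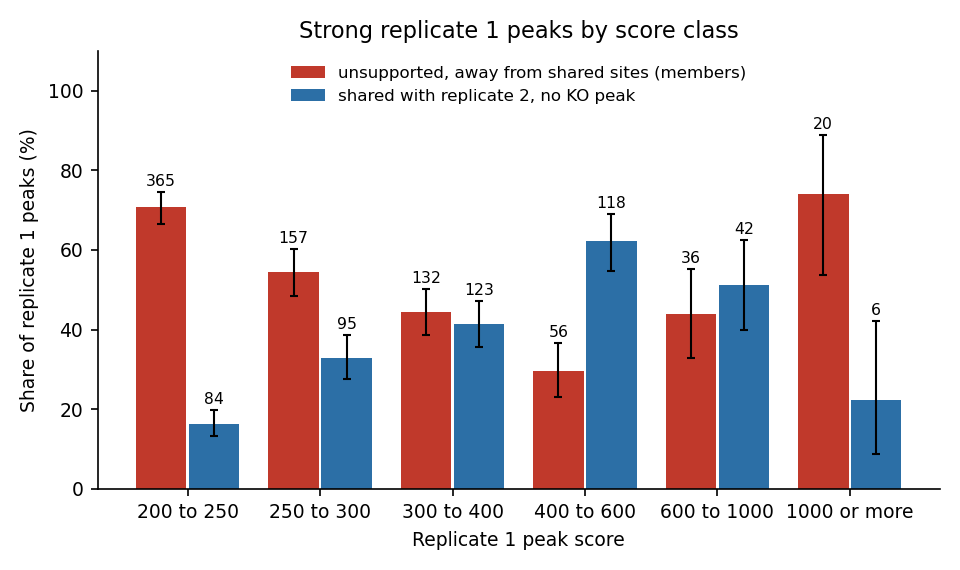
Share of replicate 1 peaks (%) in 6 classes of replicate 1 score, for members (red) and for shared sites (blue); bars carry exact 95% binomial intervals and the number of peaks. The members' share is 70.7% in the lowest class, 29.5% at scores of 400 to 600 and 74.1% at 1000 or more.

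Most members were nonetheless only moderately strong. Their scores ran from 200.13 to 3100, with a median of 256 and quartiles of 222 and 322. Scores under 250 belonged to 365 members and scores of 300 or more to 244, while 71 reached 500. The shared sites of 200 or more had a median of 338. At those shared sites the replicate 2 score had a median of 124, where the lowest score of the replicate 2 list was 70.10, and 156 of the 468 sites, or 33.3%, scored below 100 in replicate 2. For shared sites with replicate 1 scores of 200 to 250 the median replicate 2 score was 96.4, against 437 for the 6 shared sites of 1000 or more. No replicate 2 value exists at the members themselves.

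The 4 members with the highest score of the list, 3100, lay at 3 places. All 4 had exactly this value. Whether it is a ceiling of the unstated scale is unknown, so they are not ranked among themselves. On chromosome 17 the peak from 39979923 to 39985801 was 5879 bp wide, the widest member, with no other replicate 1 peak within 50 kb (positions are given in mm9). Its nearest replicate 2 peak was 3.84 Mb away and its nearest KO peak 4.64 Mb. On chromosome 6 the peak from 3150739 to 3151693 was 955 bp wide, also alone, and 6.98 Mb from the nearest replicate 2 and KO peaks. The remaining pair stood in 1 group on chromosome 2. By the rule, neither of the other lists had a peak of any score at these places.

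The chromosome 2 group held 4 members within 5.24 kb and no other replicate 1 peak. They ran from 98502365 to 98503171 with a score of 3100, from 98503733 to 98504266 with 1885, from 98505018 to 98505408 with 1513, and from 98506373 to 98507607 with 3100. The midpoints were 1.23, 1.21 and 1.78 kb apart. The nearest replicate 2 peak was 3.13 Mb from the group and the nearest KO peak 38.3 Mb. All 4 were among the 15 highest members.

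The other members among the 15 highest were single peaks of 322 to 626 bp. They lay at chr9:35112780-35113272 (score 3018), at chr16:57391208-57391833 (2697), at chr5:147072513-147073036 (2403) and at chr3:5860322-5860848 (2355). Next came chr11:108872947-108873442 (2223), chr16:11143983-11144422 (2061) and chr12:3109850-3110171 (1809). The last of the 15 were both on chromosome 9, from 56071365 to 56071853 (1484) and from 123370900 to 123371418 (1294). Within 50 kb, 7 of these 9 had no other replicate 1 peak, and the first chromosome 9 peak and the second chromosome 16 peak had 1 each. No annotation of this build was used, so genes and repeats at these places are not named, and overlap with lists of regions prone to false peaks was not tested.

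Chromosome 6 held a regular array of members. Across 136 kb, 20 members formed 2 blocks, from 47586442 to 47635816 with 12 members and from 47689632 to 47722492 with 8. Joined within 1 kb, the 20 members gave 18 positions. Of the 17 steps from one midpoint to the next, 13 were between 4.12 and 4.41 kb, and the median over all 17 was 4.36 kb. The 4 other steps were 14.4 kb, 54.6 kb between the blocks, 4.87 kb and 5.59 kb. Most peaks of both blocks thus recurred at a nearly fixed spacing.

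Scores in the array were high and differed between its blocks. They ran from 252 to 782 with a median of 419 in the first block and from 699 to 1048 with a median of 819 in the second, where each peak was 515 to 778 bp wide. The highest peak of the array ran from 47698327 to 47699018. Another 7 replicate 1 peaks in and beside the array had scores of 73.7 to 136, most of them directly beside a member. Neither replicate 2 nor KO cells had a peak within 909 kb of the array, and the nearest KO peak was 6.44 Mb away. The 20 members of the array count as 20 peaks in the shares of members given here.

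**Figure D2:**
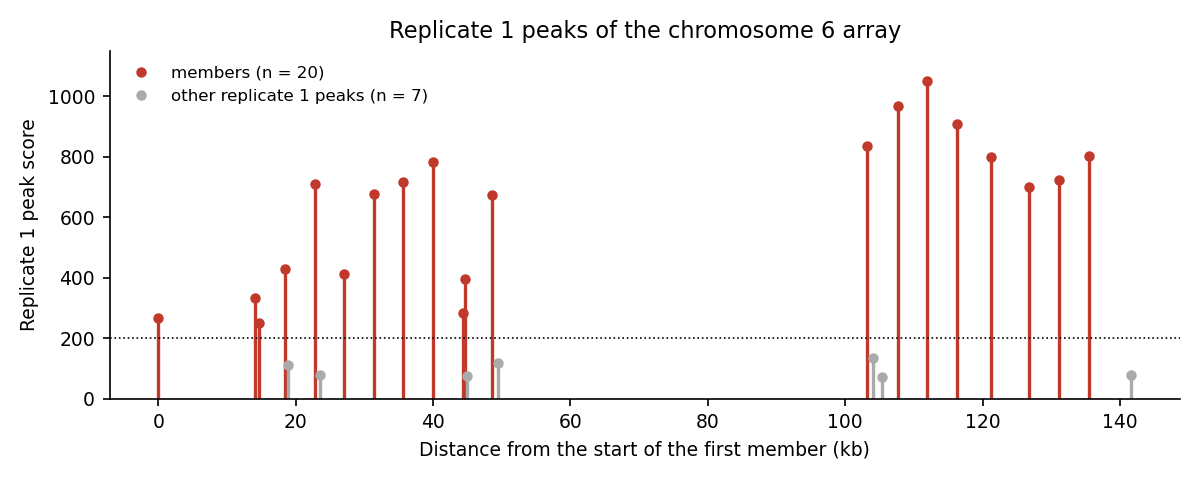
Replicate 1 peak scores against distance from the start of the first member (kb) in the chromosome 6 array, for 20 members (red) and 7 other replicate 1 peaks (grey); the dotted line marks a score of 200. Most members recur about every 4.36 kb in 2 blocks, and those of the second block all score above 698.

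The widths of the members fell into a narrow and a broad class. Median width was 304 bp (exact 95% interval 298 to 312 bp), with quartiles of 244 and 374 bp, against 379 bp (367 to 391 bp) for shared sites of 200 or more. Between the classes, from 150 to 175 bp, there were 11 members, against 48 from 75 to 100 bp and 89 from 300 to 325 bp. With a limit of 150 bp, set after the widths were seen, 94 members, or 12.3% (10.0 to 14.8%), were narrow. Among the shared sites 9 of 468, or 1.92% (0.883 to 3.62%), were that narrow, and among the strong peaks beside shared sites 2 of 136. Over all replicate 1 peaks, most of them weaker, 2281 of 7996, or 28.5%, were under 150 bp and the median width was 175 bp. Width and score come from the same peak call, and the members' median width was 283 bp at scores of 200 to 250 and 522 bp at 1000 or more. Within those score classes shared sites had median widths of 300 and 537 bp. Only at scores of 600 to below 1000 was the order reversed, with 524 bp for members and 496 bp for shared sites. The differences in width were not tested.

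Few narrow members had another peak nearby, and the same held for narrow strong peaks as a whole. Another replicate 1 peak lay within 50 kb of 21 of the 94, or 22.3% (14.4 to 32.1%), and of 469 of the 672 broader members, or 69.8% (66.2 to 73.2%). The share was 27 of 124, or 21.8%, for all narrow peaks of 200 or more, to which the members belong, 3 of 9 for narrow strong shared sites, and 1239 of 2281, or 54.3%, for narrow replicate 1 peaks of any score. The median gap to the next replicate 1 peak was 205 kb for the narrow members and 15.98 kb for the broader ones. Chromosome X held 5 of the 94 narrow members, or 5.32% (1.75 to 12.0%), and 5 of the 672 broader ones, or 0.744% (0.242 to 1.73%). It held 4.84% of all narrow strong peaks and 2.32% of narrow replicate 1 peaks of any score. The narrow members had moderate scores, with a median of 239 and a maximum of 551. The strongest narrow members were at chr9:110183747-110183870, with a score of 551 and a width of 124 bp, and at chr1:124253728-124253842, with a score of 514 and a width of 115 bp.

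Many of the strong replicate 1 peaks with a KO counterpart were narrow and alone too. Of those 32 peaks, which are not members, 19, or 59.4% (40.6 to 76.3%), were narrower than 150 bp. The median width was 97 bp for the 7 that met a KO peak alone, and 162 bp for the 25 that met both lists. Another replicate 1 peak within 50 kb was found for 6 of the 32, or 18.8% (7.21 to 36.4%). KO cells lack T-bet, so these 32 places gave a peak without it. Whether the narrow members would do so in a deeper KO library was not tested.

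**Figure D3:**
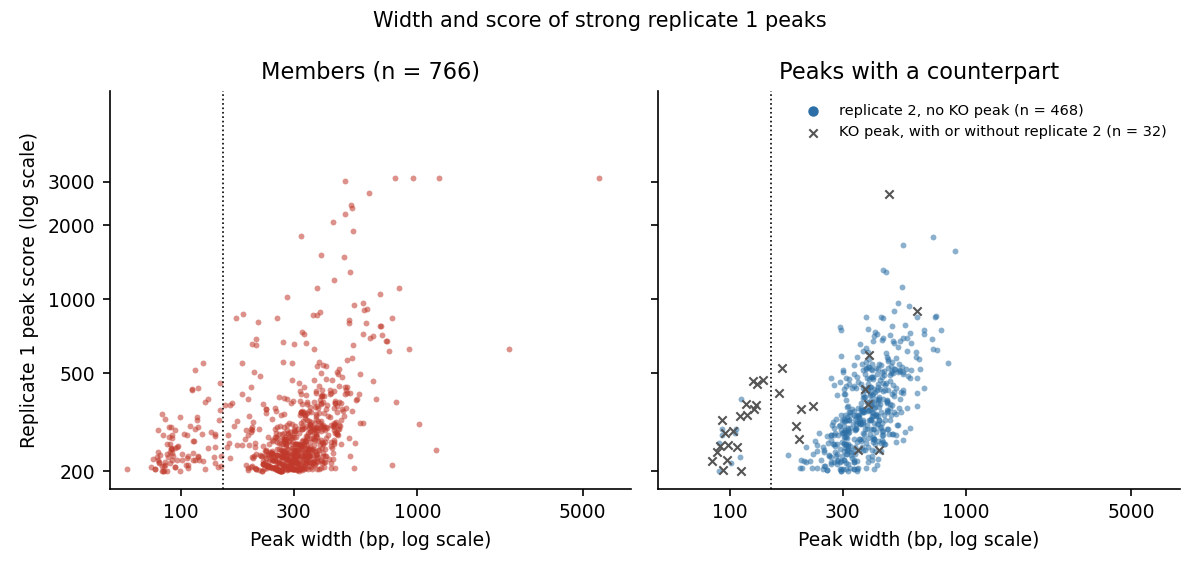
Replicate 1 score against peak width (bp), both on log scales, for the 766 members (left, red) and for strong peaks with a counterpart (right): 468 shared sites (blue) and 32 peaks met by a KO peak (crosses). The dotted line marks 150 bp, below which lie 94 members, 9 shared sites and 19 of the 32 peaks with a KO counterpart.

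The members' widths ran from 59 to 5879 bp. The narrowest member was 59 bp, at chr5:104501340-104501398, with a score of 204.5, and the next 4 were 75 to 78 bp wide with scores of 204.5 to 224. A width of 1000 bp or more was reached by 5 of the 766 members, 9 of all 7996 replicate 1 peaks and none of the 468 shared sites. For the shared sites the exact interval allows a share of up to 0.785%. At 600 bp or more the shares were 3.39% of members, 4.27% of those shared sites and 0.725% of all replicate 1 peaks. The widest replicate 1 peak, of 38439 bp, was not a member. Besides the chromosome 17 peak and the 1235 bp peak of the chromosome 2 group, the members of 1000 bp or more were 2434 bp at chrX:166434079-166436512, 1204 bp at chr4:3017199-3018402 and 1013 bp at chr18:3005045-3006057. Their scores were 625, 244 and 311. The last 2 lay close to the start of their chromosomes, which in the mouse is the centromeric end.

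Members were found at both chromosome ends, as were other replicate 1 peaks. The first 5 Mb of a chromosome held 17 members, or 2.22% (1.30 to 3.53%), beside 1.99% of all replicate 1 peaks and 0.855% (0.233 to 2.17%) of strong shared sites. Apart from the member on Y, none of the 17 started before position 3005045, so they filled only a part of that window. The last 1 Mb held 12 members, or 1.57% (0.812 to 2.72%), beside 0.9505% of all replicate 1 peaks and 0.641% of strong shared sites. These intervals overlap one another. On chromosome 1 a peak from 197067717 to 197068080 scored 625 at 127 kb from the distal end, and on chromosome 19 a peak from 61275346 to 61275777 scored 416 at 66.7 kb from it. Such end positions include the 1809 peak of chromosome 12 and the 3100 peak of chromosome 6 already described.

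The X chromosome had few members, and 4 of its 5 members of 150 bp or more lay at its distal end. It held 10 of the 766, or 0.0600 per Mb (exact 95% Poisson interval 0.0288 to 0.110), against 0.305 per Mb over the 19 autosomes. The ratio of 0.196 stood beside 0.182 for all replicate 1 peaks and 0.0957 for strong shared sites, which had 3 on X. The last 1 Mb of X, where the mouse pseudoautosomal region shared with Y lies, held 4 of the 10. They ran from 166428088 to 166428628 with a score of 207, from 166428751 to 166429673 with 630, from 166434079 to 166436512 with 625, and from 166527153 to 166527527 with 1112. In the same 1 Mb, replicate 1 had 11 peaks in all, and the nearest replicate 2 peak was 5.98 Mb from the first of them that was a member. The 6 other X members were 87 to 242 bp wide, 5 of them under 150 bp, with scores of 201 to 458. The single member on Y ran from 2652204 to 2652349 and scored 356.

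Among the autosomes, density was highest on chromosome 11, with 65 members or 0.533 per Mb (0.412 to 0.680), and lowest on chromosome 18, with 15 or 0.165 per Mb (0.0925 to 0.273). Chromosome 6 had 58 members, or 0.388 per Mb, second to chromosome 11. When members within 50 kb were joined, chromosome 6 fell to 0.234 regions per Mb and chromosome 11 stayed densest at 0.484. All replicate 1 peaks had the same extremes among the autosomes, with 5.10 per Mb on chromosome 11 and 2.03 on chromosome 18. For strong shared sites chromosome 17 was densest at 0.315 per Mb, and chromosome 11 had 0.246. Many of the single-chromosome intervals overlap, so the order of most chromosomes is not resolved.

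**Figure D4:**
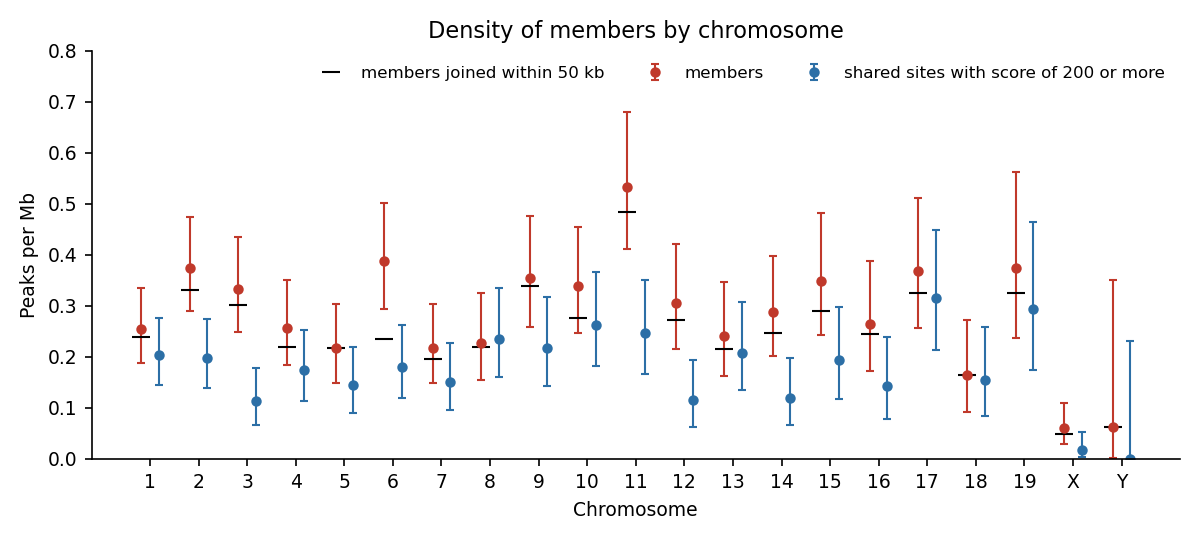
Peaks per Mb on each chromosome for members (red) and shared sites of 200 or more (blue), with exact 95% Poisson intervals; black dashes give members joined within 50 kb. Chromosome 11 has most members per Mb, at 0.533, X has 0.0600, and joining lowers chromosome 6 from 0.388 to 0.234.

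Most members had another replicate 1 peak, of any score, in their surroundings. At least 1 other replicate 1 peak lay within 50 kb of 490 members, or 64.0% (60.5 to 67.4%), beside 66.6% of all replicate 1 peaks. For strong shared sites the share was 82.9% (79.2 to 86.2%). The rule lowers the members' value, since it drops peaks within 25 kb of a shared site. All 136 strong peaks dropped in this way had a neighbour within 50 kb. A neighbour that was itself a member was less common, at 158 members or 20.6%. Joined within 50 kb, the 766 members formed 672 regions, of which 608 were single members, 51 were pairs and 13 held 3 or more.

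**Figure D5:**
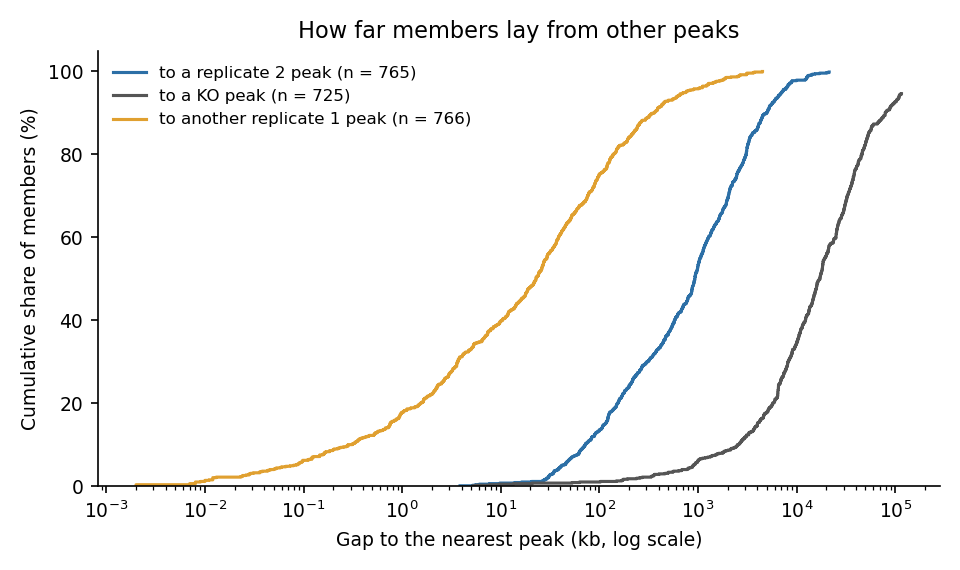
Cumulative share of the members (%) against the gap to the nearest peak (kb, log scale) of replicate 2 (blue), KO (grey) and replicate 1 (orange). The curves end at 765, 725 and 766 members because some chromosomes have no replicate 2 or KO peak; the rule keeps the first 2 gaps above 0.

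Besides the arrays of chromosomes 6 and 2, the largest group held 5 members on chromosome 14. They spread over 92.6 kb from 28062361 to 28155009 with uneven spacing and scores of 202 to 362, and 4 weaker replicate 1 peaks lay between them. This group was also near a shared site, at 34.2 kb. Groups of 3 included chr15:74915938-74947318, with scores of 274, 1107 and 320, and chr15:97655446-97674157, with scores of 654, 245 and 262. A compact one on chromosome 3, from 30992269 to 30994932, had scores of 203, 341 and 426 within 2.66 kb. The 13 groups of 3 or more held 56 members.

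One group of 3 adjoined the strongest place of the other 2 lists. On chromosome 3, members ran from 37024681 to 37025040 with a score of 245, from 37025053 to 37025348 with 220, and from 37027166 to 37027558 with 291. The replicate 2 peak from 37018311 to 37019489 ended 5.19 kb before the first of them and scored 2056, the highest value of that list. The KO peak from 37018254 to 37019438 ended 5.24 kb before it and scored 1138, the highest of the KO list. Replicate 1 had its peaks beside that place and the other libraries had theirs on it, and the scores are not comparable between lists.

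Few members came near a peak of the other libraries, and the rule largely sets this. It keeps members more than 25 kb from all 726 shared sites of any score. The gaps also depend on how short the other lists were, with 851 replicate 2 and 78 KO peaks. With the chromosome 3 group above included, 9 members had a replicate 2 peak within 25 kb and 6 a KO peak, and none had either within 1 kb. The closest to replicate 2 was at chr11:4168543-4168959, with a score of 281, 3.87 kb from a replicate 2 peak that scored 86.5. On chromosome 16 the member from 43655359 to 43655697 scored 216 and lay 6.06 kb from a replicate 2 peak that scored 85.0. On chromosome 11 the member from 86406506 to 86406909 scored 218 and lay 9.59 kb from a KO peak with a score of 467 and 9.79 kb from a replicate 2 peak with a score of 682. On chromosome 8, members from 19892973 to 19893312 and from 19784351 to 19785106 scored 375 and 619 and lay 13.5 and 20.7 kb from weak KO peaks, which scored 92.7 and 73.9. The median gap was 931 kb to a replicate 2 peak and 15.7 Mb to a KO peak, and 359 members were more than 1 Mb from any replicate 2 peak on their chromosome.

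The values on both sides of the rule's limits were as follows. Just inside the score limit, the 5 lowest members scored 200.13 to 200.24, among them chr19:36777937-36778021 and chr13:105412503-105412769. Just outside, the 5 highest peaks that met every other part of the rule scored 199.75 to 199.90, the first at chr1:162807184-162807405. The 5 members nearest a shared site were 26.2 to 29.9 kb from it, led by chr11:116240770-116241231 with a score of 280. The 5 strong peaks just within 25 kb were 21.9 to 24.6 kb away, led by chr10:21249199-21249471 with a score of 306.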

How the data were processed

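The authors deposited 1 peak list per ChIP library, without a header: chromosome, start, end, peak name and a peak-caller score of unstated scale. Per the submitters' processing notes, the tools were CASAVA, Bowtie2 and MACS 1.4 and the build was mm9. Neither settings nor filters nor the control of each call are given in the sources used here. Libraries of 150 to 350 bp were read for 35 or 50 bp, per the labels' protocols. Depth is unknown.

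The members and lists were chosen with earlier results of these data known. Positions are mm9, counted from 1. Overlap meant 1 bp or more, gaps were measured between peak edges, and chromosome lengths came from GenomeInfoDb 1.38.1 (R 4.3.3). Shares and medians carry exact 95% binomial intervals. No test was run, since the lists are single libraries and the rule used their scores. The rule was tested on simulated data. Named peaks followed fixed rules (15 highest, extremes of width, nearest to each threshold and list, largest groups). The strongest narrow members, the KO-matched peaks, the members at chromosome ends and on X and Y, the smaller groups and the chromosome 8 pair were picked with their values in view. The gene tables used here are GRCm38, so members were matched to no gene and no sequence is printed. Python 3.11.15, pandas 2.3.3, numpy 2.4.6, scipy 1.17.1 and matplotlib 3.10.9 were used.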

Additional observations from a re-analysis of the deposited data

How the results depend on the processing

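Over 50 alternative values of 5 results, 34 stayed within the interval of the reported value or within 1.5 times the reported count. The number of members, 766, became 1538 with scores of 150 or more, 244 with 300 or more and 1370 without replicate 2. Their share of strong peaks, 54.6%, became 65.2%, 40.9% and 97.7% in the same order, and 57.8% or 51.9% with a limit of 10 or 50 kb from shared sites. Median width, 304 bp, became 269, 376 and 334 bp in the first order, 322 bp with peaks within 1 kb joined, and 320 bp without narrow members. The share with a replicate 1 peak within 50 kb, 64.0%, became 58.7% with peaks within 1 kb joined, 74.0% without replicate 2, and 75.3% within 100 kb. The last uses the same members with a longer search distance. Joining fuses close peaks, which then no longer count as neighbours, and leaving out replicate 2 admits peaks. The X share, 1.31%, stayed between 0.949% and 2.05%. Joining within 50 kb and leaving out narrow members or the chromosome 6 array were chosen after seeing the data. Leaving out replicate 2 leaves no shared site, so the limit of 25 kb falls away with it. The members are then all strong peaks without a KO counterpart, and their number follows from the rule. Leaving out replicate 1 leaves no member. The planned gene and sequence results were left unrun because no mm9 genome was used. No paired analysis was possible because no test was made and the KO group has 1 library. The unknown depth limits every absence described.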
